A study of Mus musculus with 6 samples.

Results

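The 10 genes described here are the insulin-like growth factor (IGF) axis in the deposited count table: the ligands Igf1 and Igf2, the receptors Igf1r and Igf2r, and the binding proteins Igfbp2, Igfbp3, Igfbp4, Igfbp5, Igfbp6 and Igfbp7. They were taken by gene name, and all 10 were found among the 20173 genes counted. By the study's sequencing methods, RNA came from sympathetic chain cells, cultured from male mice at 3 weeks of age. The extraction methods to which these refer name dorsal root neurons instead. There were 3 libraries from Slit2fl/fl mice, which carry loxP-flanked Slit2 alleles and no Cre, and 3 from Slit2th mice, in which the same floxed alleles are deleted by Cre under the Th (tyrosine hydroxylase) promoter. The sample labels call these groups SLIT2f/f and SLIT2-knockout and the cells neurons from sympathetic ganglion. Whether a library is 1 animal or a pool is not given in the sources used here, so p-values measure the spread between these libraries. The comparison asks which transcripts, secreted factors among them, differ in sympathetic cultures without Slit2.

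IGF1 and IGF2 are secreted growth factors that signal through the IGF1 receptor, a tyrosine kinase closely related to the insulin receptor. The IGF2 receptor does not signal in this way: it carries IGF2 and mannose 6-phosphate-tagged enzymes to lysosomes. Binding proteins are secreted as well, hold most IGF outside cells, and either withhold it from the receptor or keep it in the matrix until a protease releases it. IGF signaling supports survival and axon growth of peripheral neurons, promotes Schwann cell survival, and acts on bone-forming cells.

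Total counts were 1533367 to 3155406 in Slit2fl/fl and 1255939 to 1999485 in Slit2th, and 3 counts, taken as the floor of detection, correspond to 0.951 to 2.39 CPM (counts scaled to a common library size) by these totals. Other CPM values carry TMM factors as well. The floor covers counting error only. Slit2, the deleted gene, had 139, 85 and 77 counts in Slit2fl/fl replicates 1, 2 and 3 and 17, 24 and 27 counts in Slit2th replicates 1, 2 and 3, so every Slit2th library was lower than every Slit2fl/fl library in CPM as well (log2 fold change -1.78, standard error 0.37; adjusted p = 0.423, edgeR). The label "neuron" is not matched by the neuronal markers: Th had 0 counts in all libraries, and the 15 sympathetic neuron markers in the table summed to 167.5 to 573 CPM, led by Tubb3 and Uchl1. The 14 Schwann and satellite glia markers summed to 5837 to 20060 CPM, with S100b among the most abundant. The levels below are therefore those of whole, glia-rich cultures, in which more cells of a type and more RNA per cell cannot be told apart. Replicate 1 of each group stood apart: Pearson's r of log2 CPM across genes was 0.841 and 0.863 between Slit2fl/fl replicate 1 and the other Slit2fl/fl libraries, and 0.868 and 0.867 between Slit2th replicate 1 and the other Slit2th libraries, against 0.937 and 0.965 between replicates 2 and 3.

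Among the 12152 genes that reached 1 CPM in at least 3 libraries, 0 (0%) passed a Benjamini-Hochberg adjusted p of 0.05 by the quasi-likelihood test of edgeR, while 1308 had an unadjusted p under 0.05 (10.8%). DESeq2 called 34 genes and edgeR's exact test 17 after adjustment, and none of the 9 IGF axis genes with a fold change was among them. All 10 IGF axis genes passed the low-count filter, and 1 of them, Igf1, had an unadjusted p under 0.05, a share close to the background of 10.8%. The groups did not overlap for 2 of the 10, Igf1 and Igfbp5, both higher in Slit2th, whereas 8.72% of all tested genes were separated in that direction, 9.73% in the other and 18.4% in either. Of the 9 genes abundant enough for a fold change, the log2 fold change of Slit2th over Slit2fl/fl was above 0 for 6 and below 0 for 3, with a median of 0.52, against a median of -0.05 over all tested genes.

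The promoters of Igf1 and Igfbp5, the members whose groups separated, and of Igfbp7, the binding protein with the largest fold change, are shown first. They are the RefSeq promoter windows of GRCm38.p6, from 250 bases before to 50 bases after the transcription start, printed 5′ to 3′ on the gene's strand. The window of Igf1 lies at chr10:87860861-87861160 (plus strand), that of Igfbp5 at chr1:72874816-72875115 (minus strand) and that of Igfbp7 at chr5:77407996-77408295 (minus strand). The Igf1 window lies inside the annotated gene, which starts at 87858265. Which transcription start these cells used was not tested. Capitals mark matches, on either strand, to a TATA box (TATAAA), a GC box (GGGCGG), an E box (CANNTG), an AP-1 site (TGANTCA) or a C/EBP site (TTNNGNAA), and no matches overlap.
Igf1: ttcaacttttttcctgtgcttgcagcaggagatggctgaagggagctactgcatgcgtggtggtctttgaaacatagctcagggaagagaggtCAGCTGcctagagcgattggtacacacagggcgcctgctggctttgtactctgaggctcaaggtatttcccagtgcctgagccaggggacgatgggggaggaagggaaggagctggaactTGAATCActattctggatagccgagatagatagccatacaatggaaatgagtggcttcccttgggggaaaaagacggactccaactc
Igfbp5: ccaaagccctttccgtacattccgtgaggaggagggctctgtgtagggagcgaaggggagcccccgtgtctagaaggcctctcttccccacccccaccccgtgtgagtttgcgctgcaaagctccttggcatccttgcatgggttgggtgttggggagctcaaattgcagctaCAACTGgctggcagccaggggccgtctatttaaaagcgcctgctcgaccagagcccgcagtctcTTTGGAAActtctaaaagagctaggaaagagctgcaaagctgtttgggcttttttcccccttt
Igfbp7: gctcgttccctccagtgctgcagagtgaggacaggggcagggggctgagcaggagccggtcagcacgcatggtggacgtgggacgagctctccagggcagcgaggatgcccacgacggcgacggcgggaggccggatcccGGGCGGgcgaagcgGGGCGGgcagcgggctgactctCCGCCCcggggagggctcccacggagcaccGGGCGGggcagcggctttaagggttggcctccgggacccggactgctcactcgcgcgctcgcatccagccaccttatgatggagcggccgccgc
The Igf1 window held an E box starting at -157 and an AP-1 match starting at -37 from the transcription start, and the Igfbp5 window an E box at -77 and a C/EBP match at -13. The Igfbp7 window held 4 GC boxes, at -110, -96, -74 and -44. E boxes were present in 72.3%, C/EBP matches in 40.7%, GC boxes in 35.7%, TATA boxes in 13.6% and AP-1 matches in 7.81% of the 32851 windows of this length in the table. The GC content was 52.3% for Igf1, 56.3% for Igfbp5 and 73.3% for Igfbp7, with a median of 52.7% over all windows. All 10 genes matched, with 14 windows in all. Igf1 and Igfbp5 thus shared only the E box, which most windows hold, and the matches are descriptions of letters, not of bound sites.

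The ligands were represented almost entirely by Igf1 (ENSMUSG00000020053, chromosome 10 of GRCm38, 87858265 to 87937042, plus strand, 8 merged exons free of other annotated genes). Its level was 36.1, 32.4 and 44.8 CPM in Slit2fl/fl replicates 1, 2 and 3 and 95.9, 86.2 and 120.0 CPM in Slit2th replicates 1, 2 and 3. The lowest Slit2th library lay well above the highest Slit2fl/fl library, and the spread within each group was narrow. The group means were 37.8 ± 6.40 CPM (SD, n = 3) and 100.7 ± 17.4 CPM (SD, n = 3), a ratio of 2.67. The exact permutation test of log2 CPM gave p = 0.10 (two-sided), the lowest value possible with this number of libraries. The quasi-likelihood test gave Igf1 a log2 fold change of 1.41 (standard error 0.34) at an unadjusted p of 0.00247, which became 0.423 when adjusted over the whole table (edgeR). By that p, Igf1 ranked 53 of the 12152 genes. With any single library left out the log2 fold change stayed between 1.23 and 1.49. It was 1.40 without replicate 1 of both groups (adjusted p = 0.0129, edgeR), a setting in which 362 of 12541 tested genes passed. Without replicate 2 or replicate 3 of both groups it was 1.42 and 1.37 (adjusted p = 0.554 and 0.79, edgeR).

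Igf2, the ligand best known from fetal growth and expressed from the paternal allele, was near the floor. It had 13, 2 and 2 counts in Slit2fl/fl and 1, 5 and 2 counts in Slit2th replicates 1, 2 and 3. Only Slit2fl/fl replicate 1 and Slit2th replicate 2 were above 3 counts, so no fold change is given, and a difference was not detectable at this depth. The annotated gene Gm49394 on the same strand and the antisense gene Igf2os overlap Igf2 exons, so even these counts may be shared. Igf1 had 8.69 to 109 counts for each Igf2 count in the same library, so Igf1 gave most of the ligand counts in every library.

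Igf1 is made by fibroblasts and macrophages in many tissues, and markers of these cells are given beside it. The 14 macrophage markers, led by Lyz2 and Aif1, summed to 127.8, 70.5 and 36.9 CPM in Slit2fl/fl and to 669.7, 127.6 and 148.7 CPM in Slit2th. Of the 11 tested, 5 were higher and 0 lower in Slit2th at an unadjusted p under 0.05, against 3.98% and 6.78% of all tested genes. Slit2th replicate 1 was far above the other libraries in this sum, through Lyz2 (284.3 CPM) and Aif1 (181.3 CPM). Of the 14, Lyz2, Adgre1, Mrc1 and Ptprc, the last 3 named after their values were seen, were higher in every Slit2th library than in every Slit2fl/fl library. The other macrophage markers overlapped, and 8.72% of all tested genes were separated in that direction. Mrc1 had 0, 0 and 0 counts in Slit2fl/fl and 3, 3 and 9 in Slit2th, and Ptprc 2, 0 and 1 against 3, 3 and 5, near the floor of 3 counts. Adgre1 stood at 0.639, 0.647 and 1.14 CPM (2, 1 and 2 counts) in Slit2fl/fl and at 6.16, 6.19 and 7.32 CPM (7, 13 and 13 counts) in Slit2th. Without Slit2th replicate 1 the log2 fold change of Igf1 was 1.44, and Lyz2, Adgre1, Mrc1 and Ptprc were higher in Slit2th replicates 2 and 3 too. The 14 fibroblast markers, led by Col1a2 and Dcn, summed to 2512, 3544 and 2884 CPM in Slit2fl/fl and to 3436, 4522 and 5130 CPM in Slit2th, and 3 of 11 tested were higher and 0 lower at an unadjusted p under 0.05. The summed glia markers were 5837, 10940 and 11840 CPM in Slit2fl/fl against 20060, 13470 and 15600 CPM in Slit2th, without overlap, although 0 of the 13 tested were higher and 1 was lower at an unadjusted p under 0.05. The 10 proliferation markers, led by Top2a and Mki67, summed to 329.5, 425.7 and 449.3 CPM in Slit2fl/fl and to 172.5, 275.2 and 310.4 CPM in Slit2th, also without overlap. The part of these cells in the Igf1 difference was not tested.

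The genes whose profiles were nearest to that of Igf1 over the 6 libraries were Thap1 and Itga1, with root mean square differences of 0.156 and 0.221 between centered log2(CPM + 1) values, among 7469 genes with a mean of at least 10 CPM. Thap1 stood at 6.39, 7.12 and 8.51 CPM in Slit2fl/fl and at 15.8, 14.8 and 23.7 CPM in Slit2th. Itga1, an integrin subunit that binds collagen, stood at 9.27, 8.41 and 13.1 CPM in Slit2fl/fl and at 17.6, 21.4 and 27.0 CPM in Slit2th.

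**Figure D1:**
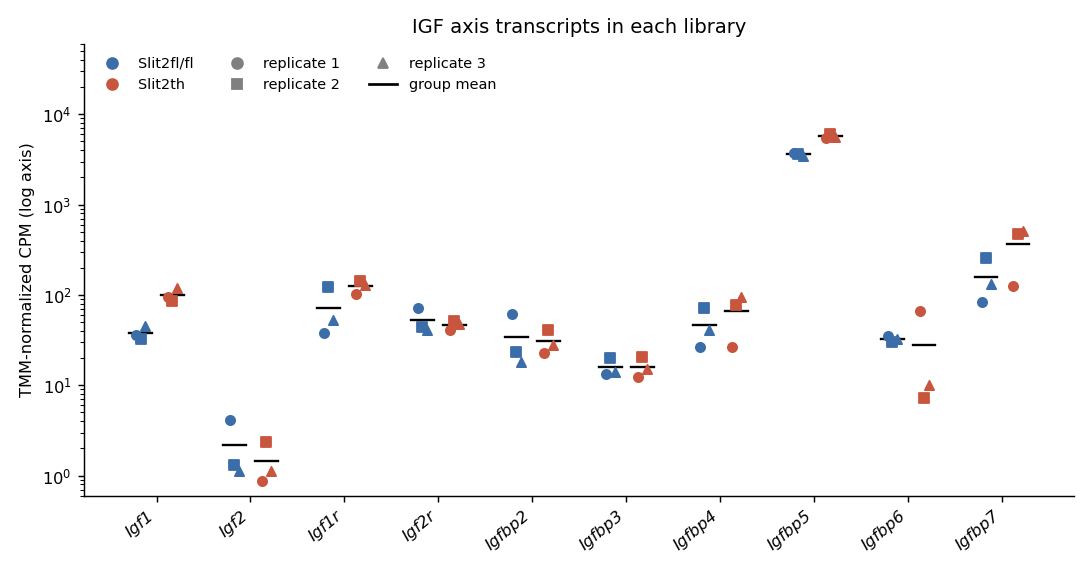
TMM-normalized CPM (log axis) of the 10 IGF axis genes in each library, blue for Slit2fl/fl and red for Slit2th, with a marker shape per replicate number and a black bar at each group mean (n = 3). The groups are separated for Igf1 and Igfbp5, Igf2 sits near 1 CPM, and the Slit2th libraries of Igfbp6 spread from 7.14 to 66.9 CPM.

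The signaling receptor Igf1r (ENSMUSG00000005533, chromosome 7, 67952827 to 68233668, plus strand) stood at 38.0, 121.6 and 52.8 CPM in Slit2fl/fl, against 103.0, 143.8 and 129.0 CPM in Slit2th. Slit2fl/fl replicate 2 was above Slit2th replicate 1, so the groups overlap (p = 0.20 by the two-sided exact permutation test). The means were 70.8 ± 44.6 CPM for Slit2fl/fl and 125.3 ± 20.7 CPM for Slit2th (SD, n = 3 each). The log2 fold change of 0.83 (standard error 0.46) had an adjusted p of 0.517 by edgeR's test. It ranged from 0.51 without Slit2fl/fl replicate 1 to 1.46 without Slit2fl/fl replicate 2, and the groups separated when the latter was left out. In that setting 1927 genes were separated higher and 2192 lower of 12786 tested. Foxd3, a transcription factor of the neural crest and early glia that is also in the glia marker list, was among the nearest profiles of Igf1r (root mean square difference 0.0998), after Tfdp1 (0.0996). Foxd3 stood at 87.6, 246.5 and 112.3 CPM in Slit2fl/fl and at 222.7, 308.1 and 325.0 CPM in Slit2th, so it too was low in Slit2fl/fl replicates 1 and 3. The glia markers did not share a profile: in Slit2fl/fl replicate 1 Cdh19 was at its lowest (339.7 CPM), whereas Sox10 was at its highest (696.7 CPM).

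Igf2r (ENSMUSG00000023830, chromosome 17, 12682406 to 12769664, minus strand), the clearing receptor, was the steadier of the receptors. It stood at 72.2, 44.0 and 40.9 CPM in Slit2fl/fl and at 40.5, 51.0 and 47.9 CPM in Slit2th. Slit2fl/fl replicate 1 was the highest library and the other 5 lay between 40.5 and 51.0 CPM. The log2 fold change was -0.17 (standard error 0.37; adjusted p = 0.858, edgeR) and turned to 0.13 without Slit2fl/fl replicate 1. Per kilobase of merged exon, Igf1r was 0.292, 1.53 and 0.716 times Igf2r in Slit2fl/fl and 1.41, 1.57 and 1.49 times Igf2r in Slit2th. Igf1r thus exceeded Igf2r in all 3 Slit2th libraries and in Slit2fl/fl replicate 2, with Slit2fl/fl replicate 2 inside the range of Slit2th.

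The binding proteins were led by Igfbp5 (ENSMUSG00000026185, chromosome 1, 72857932 to 72874884, minus strand, 4 merged exons without overlapping genes), which binds IGFs and matrix. It stood at 3759, 3663 and 3454 CPM in Slit2fl/fl and at 5446, 6035 and 5576 CPM in Slit2th replicates 1, 2 and 3. All 3 Slit2th libraries were higher than all 3 Slit2fl/fl libraries, and the gap between the groups was wider than the range within either. The means were 3626 ± 155.8 and 5686 ± 309.4 CPM (SD, n = 3 each), a ratio of 1.57, with p = 0.10 by the two-sided exact permutation test. Its log2 fold change of 0.65 (standard error 0.32) had an adjusted p of 0.480 (edgeR). It was 0.55 to 0.67 with any library left out and 0.69 without replicate 1 of both groups (adjusted p = 0.0291, edgeR). Without replicate 2 or replicate 3 of both groups it was 0.62 and 0.59 (adjusted p = 0.817 and 0.867, edgeR). Igfbp5 ranked 21 among all genes by mean CPM. It took 0.344% to 0.373% of all counts in Slit2fl/fl libraries and 0.493% to 0.634% in Slit2th libraries. The exact binomial 95% confidence intervals reached at most 0.3795% in Slit2fl/fl and started at 0.4805% in Slit2th, and these intervals cover counting error only, not the spread between libraries. Top1, DNA topoisomerase 1, was among the nearest profiles, with a root mean square difference of 0.0851. Top1 stood at 315.5, 353.9 and 312.0 CPM in Slit2fl/fl and at 494.6, 520.0 and 554.3 CPM in Slit2th.

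Igfbp7 (ENSMUSG00000036256, chromosome 5, 77349240 to 77408041, minus strand), which binds IGFs weakly and insulin and is abundant in vessel walls, was the binding protein with the largest fold change and a wide spread. It stood at 84.1, 256.8 and 133.3 CPM in Slit2fl/fl and at 125.0, 477.6 and 509.3 CPM in Slit2th. Slit2th replicates 2 and 3 were above all Slit2fl/fl libraries, but Slit2th replicate 1 lay below Slit2fl/fl replicates 2 and 3 (two-sided exact permutation test, p = 0.30). The log2 fold change was 1.23 (standard error 0.59; adjusted p = 0.477, edgeR), from 0.87 without Slit2th replicate 3 to 1.77 without Slit2fl/fl replicate 2. It was 1.63 without Slit2th replicate 1, and then the groups did not overlap, in a setting where 2265 genes were separated higher and 2393 lower of 12903 tested. Leaving out replicate 1 of both groups gave 1.32 with an adjusted p of 0.0140 (edgeR). Leaving out replicate 2 or replicate 3 of both groups gave 1.56 and 0.77 (adjusted p = 0.575 and 0.86, edgeR). Polr2b overlaps the Igfbp7 exons on the opposite strand, and the strand setting of the counting is not given in the sources used here. Markers of vessel wall cells are given beside it. The 11 mural and smooth muscle markers, led by Pdgfrb and Acta2, summed to 173.9, 81.5 and 68.1 CPM in Slit2fl/fl and to 202.4, 56.7 and 81.1 CPM in Slit2th, where Pdgfrb alone gave 183.9 CPM of the sum in replicate 1. The 10 endothelial markers, led by Egfl7 and Emcn, summed to 132.3, 58.2 and 42.6 CPM in Slit2fl/fl and to 57.2, 49.5 and 54.1 CPM in Slit2th. The part of these cells in the Igfbp7 difference was not tested. The nearest profiles were those of Sp4 and Necap1, at 0.216 and 0.258.

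Igfbp6 (ENSMUSG00000023046, chromosome 15, 102144362 to 102149511, plus strand), which prefers IGF2 over IGF1, had the widest ratio of highest to lowest library among the 10 genes, 9.36, and both of these libraries were Slit2th. It stood at 35.5, 29.8 and 32.9 CPM in Slit2fl/fl, a narrow range, and at 66.9, 7.14 and 10.1 CPM in Slit2th replicates 1, 2 and 3. Slit2th replicate 1 was thus the highest of all libraries and Slit2th replicates 2 and 3 the lowest. The means of 32.7 ± 2.86 and 28.1 ± 33.7 CPM (SD, n = 3 each) and the log2 fold change of -0.26 (standard error 0.75; adjusted p = 0.900, edgeR) describe none of the Slit2th libraries. Without Slit2th replicate 1 the log2 fold change was -1.93 (adjusted p = 0.356, edgeR), and leaving out replicate 1 of both groups gave -1.88 (adjusted p = 0.0187). Leaving out replicate 2 or replicate 3 of both groups turned the log2 fold change to 0.16 and 0.17 (adjusted p = 0.972 and 0.983, edgeR). Without Slit2th replicate 2 it was 0.23. Slit2th replicate 1 was also the highest library in the summed macrophage (669.7 CPM), glia (20060 CPM) and mural and smooth muscle markers (202.4 CPM). It was not the highest in the other summed marker lists. The part of these cells in the Igfbp6 level was not tested. Atp9b, the nearest profile (0.256), stood at 54.6, 5.71 and 6.76 CPM in Slit2th replicates 1, 2 and 3.

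Igfbp4 (ENSMUSG00000017493, chromosome 11, 99041244 to 99054392, plus strand), which holds IGF in the fluid around cells and is cut by the protease PAPP-A, stood at 26.9, 71.8 and 41.4 CPM in Slit2fl/fl and at 26.4, 77.6 and 95.2 CPM in Slit2th. Replicate 1 was the lowest library in each group, so the groups overlap (p = 0.60 by the two-sided exact permutation test). Its log2 fold change was 0.52 (standard error 0.54; adjusted p = 0.702, edgeR), from 0.11 without Slit2th replicate 3 to 0.97 without Slit2fl/fl replicate 2. Pappa, which encodes PAPP-A, stood at 2.24, 12.3 and 7.94 CPM in Slit2fl/fl and at 23.8, 14.8 and 19.7 CPM in Slit2th. Its groups did not overlap, as for 8.72% of all tested genes in that direction. The log2 fold change of Pappa, 1.41 (standard error 0.61), had a p of 0.0469 before and 0.462 after adjustment (edgeR).

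Igfbp2 (ENSMUSG00000039323, chromosome 1, 72824503 to 72852474, plus strand), which lies beside Igfbp5 in the genome, stood at 62.0, 23.3 and 18.2 CPM in Slit2fl/fl and at 22.9, 41.0 and 28.2 CPM in Slit2th. Slit2fl/fl replicate 1 was the highest library, and the log2 fold change of -0.17 (standard error 0.52; adjusted p = 0.903, edgeR) became 0.57 without it. Igfbp3 (ENSMUSG00000020427, chromosome 11, 7206086 to 7213923, minus strand), the main carrier of IGF in blood, had the lowest mean level of the binding proteins per kilobase. It stood at 13.4, 20.1 and 14.2 CPM in Slit2fl/fl and at 12.3, 20.5 and 15.2 CPM in Slit2th, with nearly equal means of 15.9 ± 3.63 and 16.0 ± 4.14 CPM (SD, n = 3 each). The log2 fold change was 0.03 (standard error 0.42; adjusted p = 0.982, edgeR).

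**Figure D2:**
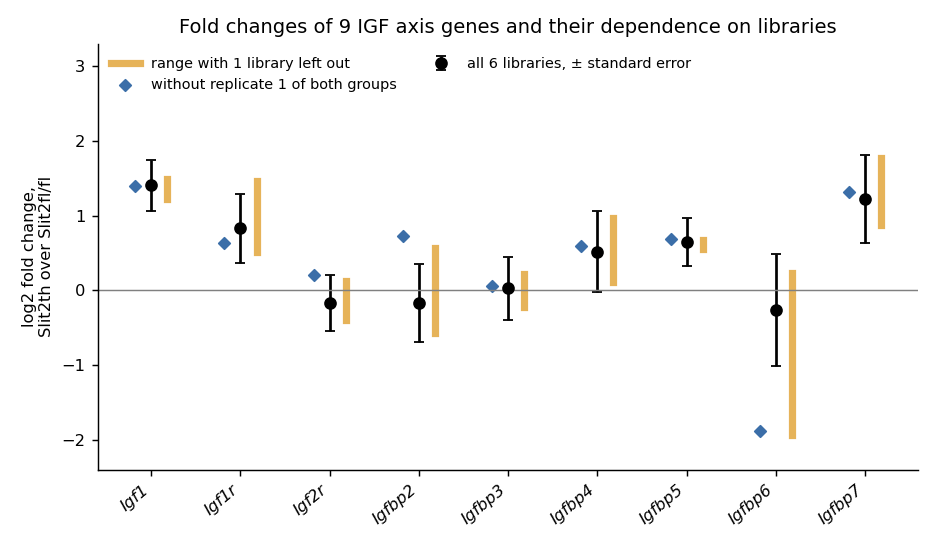
log2 fold change of Slit2th over Slit2fl/fl for the 9 IGF axis genes with a fold change: black points with bars of ± 1 standard error for all 6 libraries, orange lines for the range with 1 library left out, blue diamonds without replicate 1 of both groups. Igf1 and Igfbp5 have short orange lines above 0 (1.23 to 1.49 and 0.55 to 0.67), whereas the line of Igfbp6 runs from -1.93 to 0.23.

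Compared per kilobase of merged exon, so that genes of different length can be set side by side, the order of the mean levels over 6 libraries was Igfbp5, Igfbp7, Igfbp6, Igfbp2, Igfbp4, Igf1, Igf1r, Igf2r, Igfbp3 and Igf2. Igfbp5 had a mean of 775.2 CPM per kilobase, Igfbp7 218.6, Igfbp6 27.3 and Igf2 0.320. The ranges over libraries did not overlap between Igfbp5 and Igfbp7, between Igfbp7 and Igfbp6, or between Igfbp3 and Igf2, and these orders held in 6 of 6 libraries. All other neighbors overlapped, from Igfbp6 down to Igfbp3, and Igfbp6 and Igfbp2, like Igf2r and Igfbp3, kept their order in only 3 of 6 libraries. Igf1, Igf1r, Igf2r and Igfbp3 had means between 5.09 and 6.99 CPM per kilobase, and their ranges over all 6 libraries overlap. Within Slit2th alone, Igf1 (8.70 to 12.1 CPM per kilobase) lay above Igf2r (4.35 to 5.47) and Igfbp3 (3.94 to 6.54), and Igf1r (6.13 to 8.57) lay above Igf2r.

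The 6 binding protein transcripts summed to 771.3, 884.4 and 738.8 CPM per kilobase in Slit2fl/fl and to 1093, 1453 and 1400.0 CPM per kilobase in Slit2th. This sum is mostly Igfbp5, which is higher in Slit2th by itself. Igfbp5 made up 81.2%, 69.0% and 77.9% of the sum in Slit2fl/fl and 83.0%, 69.2% and 66.3% in Slit2th. Igfbp7 made up 9.01%, 24.0% and 14.9% in Slit2fl/fl, against 9.46%, 27.2% and 30.1% in Slit2th. Replicate 1 of each group had the lowest Igfbp7 share and the highest Igfbp5 share, and the shares of both genes overlap between the groups. Igfbp6 made up 3.03% to 4.14% in Slit2fl/fl, 5.51% in Slit2th replicate 1 and 0.442% and 0.651% in Slit2th replicates 2 and 3. The summed binding proteins were 163.3 to 270.8 times Igf1 per kilobase in Slit2fl/fl and 112.8 to 166.9 times in Slit2th, and these ranges overlap.

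**Figure D3:**
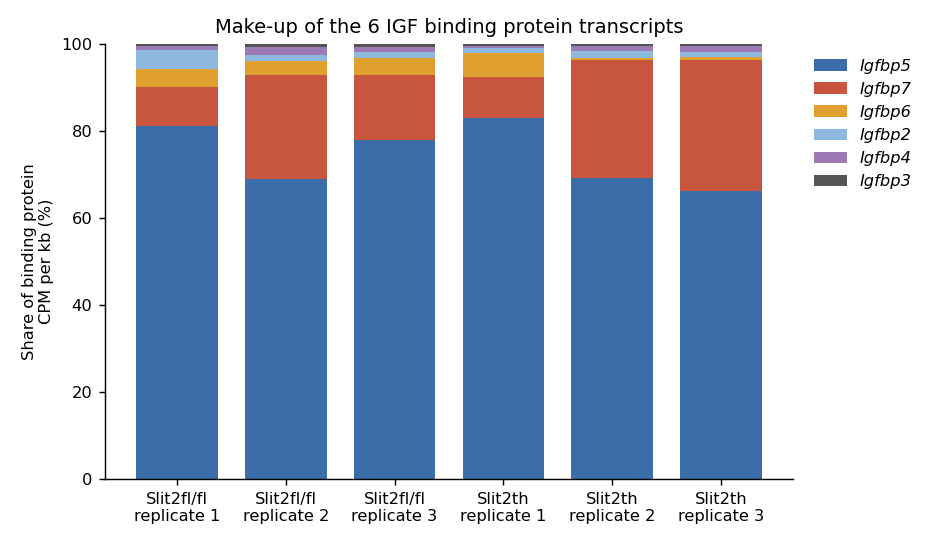
Share of each of the 6 binding protein transcripts in their summed CPM per kilobase (%), 1 bar per library. Igfbp5 fills 66.3% to 83.0% of every bar, and Igfbp7 is smallest in replicate 1 of each group (9.01% and 9.46%).

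Seen across libraries, the members fell into unlike profiles, given as log2(CPM + 1) relative to each gene's own mean over 6 libraries. Igf1 and Igfbp5 were below their mean in every Slit2fl/fl library (-0.90 to -0.44 and -0.39 to -0.27) and above it in every Slit2th library (0.49 to 0.96 and 0.26 to 0.41). Igf2, Igf2r and Igfbp2 were highest in Slit2fl/fl replicate 1, at 0.96, 0.57 and 1.03. Igfbp4 and Igfbp7 were low in replicate 1 of each group (-0.88 and -0.90 for Igfbp4, -1.32 and -0.75 for Igfbp7) and highest in Slit2th replicate 3 (0.91 and 1.27). Slit2fl/fl replicate 1 was the deepest library, and it also had the highest summed neuronal markers, at 573 CPM against 167.5 to 191.2 CPM in the other 5 libraries. The part of depth or cell content in these profiles was not tested.

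**Figure D4:**
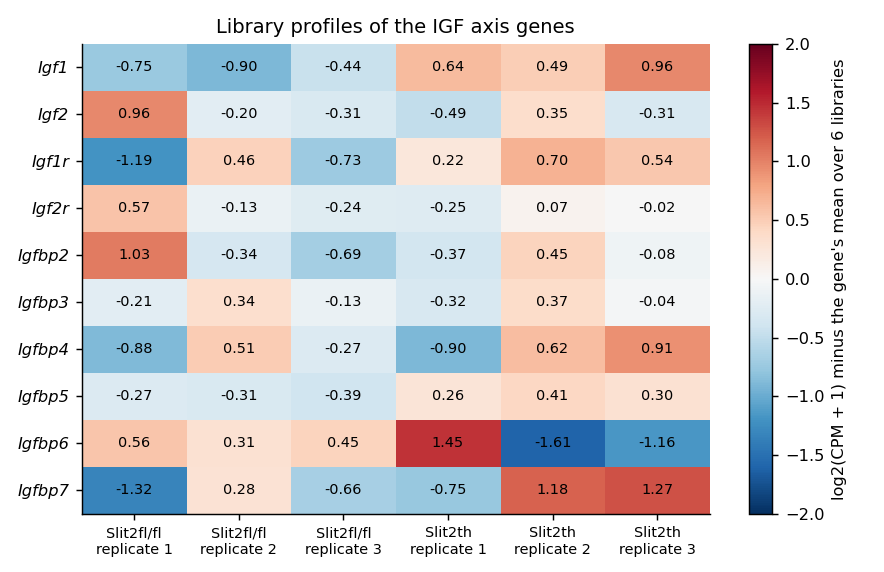
log2(CPM + 1) of each IGF axis gene minus its own mean over the 6 libraries, with the value printed in each cell, red above and blue below the mean. Igf1 and Igfbp5 change sign between the Slit2fl/fl and the Slit2th columns, Igf2, Igf2r and Igfbp2 are highest in Slit2fl/fl replicate 1, and Igfbp6 runs from 1.45 to -1.61 within Slit2th.

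Around the IGF axis, 57 genes of 5 lists were in the table, of which 48 were tested: 4 were higher and 4 lower in Slit2th at an unadjusted p under 0.05, with backgrounds of 3.98% and 6.78% of all tested genes, and 0 passed after adjustment (edgeR). Their median log2 fold change was -0.10. The genes named from each list were its 2 of smallest unadjusted p. Where their groups do not overlap, 18.4% of all tested genes were separated in either direction. Of the carriers, proteases and protease inhibitors, 5 of 11 were tested and 1, Pappa, had an unadjusted p under 0.05. Htra1, a secreted protease that cuts IGF binding proteins, stood at 37.4, 20.1 and 19.9 CPM in Slit2fl/fl and at 16.7, 16.2 and 16.9 CPM in Slit2th, without overlap (log2 fold change -0.64, standard error 0.42). Igfbp1, Igfbpl1 and Pappa2 had 0 counts in all libraries.

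Among the insulin receptor family and its adaptors, 10 genes were tested and 1 had an unadjusted p under 0.05. This was Shc1, an adaptor that links the receptors to Ras, at 77.3, 35.6 and 47.1 CPM in Slit2fl/fl against 22.00, 18.6 and 14.7 CPM in Slit2th. Its log2 fold change was -1.54 (standard error 0.43; unadjusted p = 0.00541, adjusted p = 0.423, edgeR), with every Slit2th library below every Slit2fl/fl library. Grb14, an adaptor that inhibits the insulin receptor, was higher in every Slit2th library, at 31.7, 40.5 and 39.4 CPM against 18.2, 23.9 and 26.1 CPM (log2 fold change 0.71, standard error 0.36).

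Of the 16 PI3K-AKT-FOXO effectors, all tested, 1 was higher and 2 were lower at an unadjusted p under 0.05, with a median log2 fold change of -0.03. Foxo3, a transcription factor that AKT keeps out of the nucleus, stood at 51.8, 42.1 and 49.4 CPM in Slit2fl/fl and at 26.4, 21.9 and 20.3 CPM in Slit2th. The groups did not overlap, and the log2 fold change was -1.07 (standard error 0.35; unadjusted p = 0.0141, adjusted p = 0.423, edgeR). For Tsc2, a brake on mTOR, the log2 fold change was -2.33 (standard error 0.79; adjusted p = 0.423, edgeR), from 23.3, 3.24 and 10.2 CPM in Slit2fl/fl against 3.52, 2.86 and 1.13 CPM in Slit2th, so that Slit2fl/fl replicate 1 was by far the highest and the groups overlap.

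The growth hormone receptor and Igf2 mRNA regulators had 7 tested genes and 0 with an unadjusted p under 0.05. Stat5a and Stat5b, which carry the growth hormone signal to Igf1 in liver, had log2 fold changes of -1.58 and -0.59 (standard errors 0.83 and 0.45). Both were lower in every Slit2th library than in every Slit2fl/fl library. The margins were narrow, 5.07 against 5.175 CPM for Stat5a and 12.39 against 12.48 CPM for Stat5b. Stat5a had 49, 8 and 13 counts in Slit2fl/fl and 0, 8 and 9 counts in Slit2th. Of 10 tested imprinted growth genes, 2 were higher and 1 was lower at an unadjusted p under 0.05. Plagl1, a transcription factor of the imprinted growth genes, stood at 12.2, 34.9 and 18.7 CPM in Slit2fl/fl and at 47.5, 66.7 and 96.9 CPM in Slit2th (log2 fold change 1.70, standard error 0.49; unadjusted p = 0.00701, adjusted p = 0.423, edgeR). H19, the noncoding RNA that shares its imprinting control region with Igf2, stood at 21.1, 63.4 and 49.9 CPM in Slit2fl/fl and at 3.52, 14.3 and 15.8 CPM in Slit2th. Its groups did not overlap (log2 fold change -1.96, standard error 0.61; unadjusted p = 0.0106, adjusted p = 0.423, edgeR). In Slit2th replicate 1 H19 had 4 counts, close to the floor.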

How the data were processed

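Slit2fl/fl and Slit2th sympathetic cultures were compared with 3 libraries each. The authors made TruSeq libraries, aligned reads to mm10 with HISAT2 and deposited raw counts, whole numbers for each of 20173 genes. The submitters' processing notes name GRCm39 instead, and the counting program, strand setting and annotation release are not given in the sources used here. Identifiers were joined to GENCODE M21 (GRCm38; 20166 found) for positions and merged exon lengths.

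Counts were analyzed in R 4.3.3 with edgeR 4.0.16: genes with at least 1 CPM in at least 3 libraries, TMM scaling, the quasi-likelihood test without covariates and Benjamini-Hochberg adjustment over all tested genes. The standard error is the log2 fold change divided by the root of F. Single genes were compared by exact permutation tests of log2(CPM + 1). The test was checked on simulated counts. DESeq2 1.42.0, edgeR's exact test, other scalings and filters, a replicate block and left-out libraries were alternatives.

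Named genes were Slit2, all 10 members, the 2 genes of smallest p in each pathway list, the 2 most abundant markers of each cell type list, markers at 0, and the 2 nearest profiles. Dbh, Hand2, Insrr and Phlda2 were not analysed here, and some genes these rules name are not reported here. The members and lists were chosen with earlier results of these data known. Total counts are given with the results, and with 3 libraries a group the exact test cannot go below p = 0.10.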

Additional observations from a re-analysis of the deposited data

How the results depend on the processing

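Depth limits Igf2 and the other genes near 3 counts. The count of genes with an adjusted p under 0.05 was 0 with edgeR's quasi-likelihood test, 34 with DESeq2, 17 with edgeR's exact test, 7 without a filter on low counts, and 0 to 362 with libraries left out, 362 being without replicate 1 of both groups and 1 without Slit2fl/fl replicate 1. Genes with an unadjusted p under 0.05 numbered 1308, and 693 to 2156 with libraries left out. IGF axis genes with an unadjusted p under 0.05 numbered 1, then 2 with DESeq2, 2 without a filter, and 1 to 5 with libraries left out. Over all tested genes, DESeq2 gave 1192 of 12152 and the fit without a filter 1836 of 17358. The 5 were without replicate 1 of both groups, where 2156 of 12541 tested genes had an unadjusted p under 0.05. IGF axis genes whose groups did not overlap numbered 2, and 2 to 8 with libraries left out. The 8 were without replicate 1 of both groups, where 2910 genes were separated higher and 3043 lower of 12541 tested. Igf1 had an unadjusted p under 0.05 in all 16 alternatives. With libraries left out, the log2 fold change ran from -0.65 to 0.73 for Igfbp2, from -0.40 to 0.21 for Igf2r, from -1.93 to 0.23 for Igfbp6 and from -0.22 to 0.22 for Igfbp3, so that each changed sign. The causes were not tested.

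With the replicate number as a block, 3 IGF axis genes (Igf1, Igf1r and Igfbp7) had an unadjusted p under 0.05, as had 1615 of all 12152 tested genes. After adjustment 0 genes passed, and the log2 fold change of Igfbp2 reversed to 0.0178. Same-numbered libraries had correlations of 0.29, 0.242 and 0.0795 of their deviations from group means, and Slit2fl/fl replicate 2 correlated best with Slit2th replicate 3 (0.252), so the numbers were not taken to pair the libraries.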
